A study of Mus musculus with 18 samples.

Results

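Messenger RNA of 10 proposed markers of white, brown and beige fat was followed across 3 adipose tissues. They were chosen by gene symbol, 1 as a proposed white marker (Slc7a10), 5 as proposed brown markers (Slc36a2, P2rx5, Kcnk3, Epsti1 and Eva1a) and 4 as proposed beige markers (Tmem26, Tnfrsf9, Tbx1 and Slc29a1). All 10 were found among the 54347 genes of the table and all 10 were among the 18728 genes that passed the filter on low counts. The libraries came from interscapular brown (iBAT), inguinal white (iWAT) and epididymal white adipose tissue (eWAT) of 6 mice on the C57BL/6N background, 12 weeks of age and fed chow. Of these litter mates, 3 were wild type (wt) and 3 lacked the long noncoding RNA gene Gm15551 (ko), through a germline CRISPR/Cas9 deletion that takes in exon 1, and each of the 6 groups held 3 libraries, 1 per mouse. The labels do not give which animals shared a litter.

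Brown adipocytes burn fuel for heat through the uncoupling protein UCP1, white adipocytes store lipid, and beige adipocytes are UCP1-bearing cells that appear within white depots such as iWAT, above all in the cold. Membrane proteins that mark only 1 of these cell types would allow the cells to be recognised or sorted without opening them, and the proposed markers come from comparisons of cultured cells and of depots. Not every one is a surface protein, since Tbx1 encodes a transcription factor of the T-box family and Epsti1 an interferon-inducible protein.

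The libraries held between 14997901 (eWAT ko replicate 3) and 34389586 (eWAT ko replicate 2) estimated counts. Gm15551 had 40 to 68 counts in wild type iBAT, 59 to 316 in wild type iWAT and 181 to 237 in wild type eWAT, compared with at most 4 in any knockout library. The summed level of 10 thermogenic genes set iBAT (7723 to 13510 CPM, counts scaled to the same library total) apart from iWAT (35.15 to 375.2 CPM) and eWAT (17.77 to 31.73 CPM). Genes of neighbouring organs stood out in 4 libraries and, less so, in a further 1. The 12 lymph node genes summed to 1374 and 585.6 CPM in iWAT wt replicate 3 and iWAT ko replicate 2, against 6.225 to 27.72 CPM in the other 4 iWAT libraries, 3.776 to 9.851 in iBAT and 7.852 to 21.79 in eWAT. The 10 skeletal muscle genes reached 4689 CPM in iWAT ko replicate 1, with at most 23.85 in any other library. The 8 epididymis genes reached 5093 CPM in eWAT ko replicate 3 and 34.82 in eWAT wt replicate 1, with at most 2.766 elsewhere. In whole tissue, fewer cells of a type and less RNA per cell cannot be told apart.

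Of the 10 genes, 3 followed a gradient from iBAT over iWAT to eWAT, namely Slc36a2, P2rx5 and Kcnk3, all proposed as brown. Another 4 were highest in iWAT, 3 of them proposed as beige (Tmem26, Tnfrsf9 and Tbx1) and 1 as brown (Epsti1). Slc7a10, proposed as white, was low in iBAT, with means of 204 and 199 CPM in the white tissues, and Eva1a and Slc29a1 were highest in iBAT with close levels in iWAT and eWAT. Values are CPM on a common scale for all libraries, given as mean ± SD over the 6 mice of a tissue, with the lowest, the median and the highest library. Differences are log2 fold changes with their SE from edgeR, and p-values were adjusted over all genes tested.

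**Figure D1:**
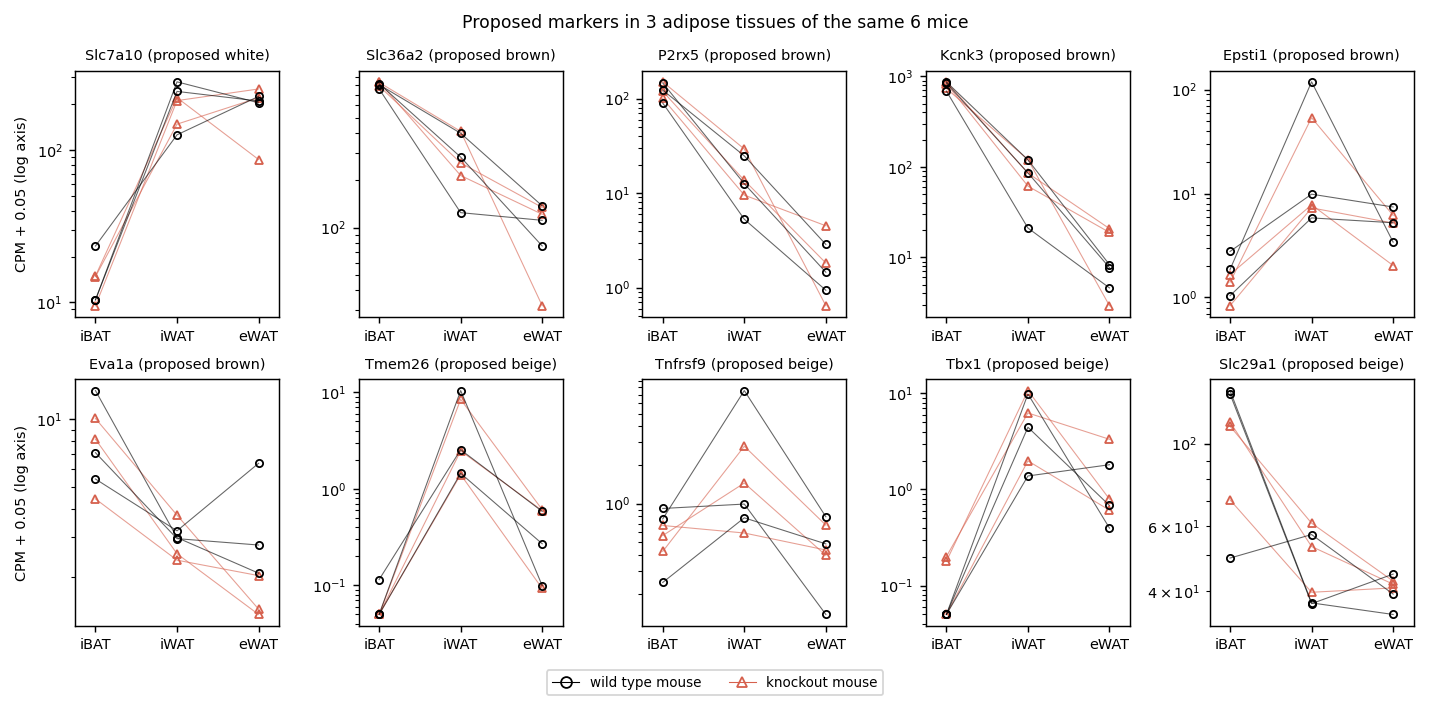
Level of each of the 10 proposed markers (CPM + 0.05, log axis) in iBAT, iWAT and eWAT. Each line joins the 3 libraries of 1 mouse, black circles for the 3 wild type and red triangles for the 3 knockout mice. Slc36a2, P2rx5 and Kcnk3 fell from iBAT over iWAT to eWAT in 6 of 6 mice, Epsti1 and Tmem26 were highest in iWAT in 6 of 6, and 2 iWAT libraries stood above the other 4 for Epsti1, Tmem26 and Tnfrsf9.

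Slc7a10 encodes ASC-1, a sodium-independent exchanger of small neutral amino acids that needs a heavy chain partner, 4F2hc, encoded by Slc3a2. The gene (ENSMUSG00000030495) lies on chromosome 7 from 35186385 to 35201114 in GRCm38, on the plus strand. Its level was 13.9 ± 5.23 CPM in iBAT (9.47, 12.5 and 23.4), 204 ± 57.8 in iWAT (125, 215 and 279) and 199 ± 57.5 in eWAT (86.4, 214 and 251). No iBAT library reached the lowest library of either white tissue, while the 2 white tissues overlapped almost fully. Expression was lower in iBAT than in iWAT by 14.7-fold (log2 −3.88, SE 0.295, adjusted p = 1.99e-08) and lower than in eWAT by 14.3-fold (log2 −3.84, adjusted p = 1.37e-08). Between iWAT and eWAT the difference was 0.04 on the log2 scale (SE 0.260, adjusted p = 0.948), and 3 of 6 mice had the higher level in iWAT. The partner Slc3a2 was detected everywhere, at 67.5 ± 32.9 CPM in iBAT against 110 ± 12.1 for iWAT and 134 ± 10.2 for eWAT, a difference between iBAT and iWAT of −0.72 on the log2 scale (adjusted p = 0.00549) and between iBAT and eWAT of −1.004 (adjusted p = 0.000426).

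The start of Slc7a10 is shown because it was the only proposed white marker of the 10 and its libraries did not overlap between brown and white tissue. The RefSeq sequence of GRCm38.p6 at chr7:35186135-35186434 (plus strand, 250 bases before to 50 after the start) holds 24 CpG and 70.67% G and C. Capitals mark letters CCCNNGGG, the motif of the EBF factors that act in adipocytes, which match 4 times, 3 of them in overlapping positions, and GGGNNTTCC, a motif of NF-kB, which matches once. Both were searched on both strands, and 13.67% and 5.82% of 32851 mouse promoters of this length hold them.
Slc7a10: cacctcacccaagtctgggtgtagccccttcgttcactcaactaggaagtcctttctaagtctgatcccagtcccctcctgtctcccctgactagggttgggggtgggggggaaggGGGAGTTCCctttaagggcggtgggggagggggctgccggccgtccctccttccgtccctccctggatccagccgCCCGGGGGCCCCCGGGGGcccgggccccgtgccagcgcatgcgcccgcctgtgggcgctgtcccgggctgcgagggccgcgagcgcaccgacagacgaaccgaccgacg
These matches are a description of the letters, not of binding.

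Slc36a2, P2rx5 and Kcnk3 were the 3 genes graded over all tissues. Slc36a2 encodes a proton-coupled transporter of small amino acids such as glycine and proline and lies on chromosome 11 from 55158470 to 55185077 (ENSMUSG00000020264, minus strand). It reached 811 ± 30.4 CPM in iBAT (761, 815 and 844), 281 ± 109 in iWAT (124, 269 and 409) and 102 ± 40.8 in eWAT (31.8, 116 and 137). All 6 iBAT libraries lay within a narrow band above every white library, and the iWAT and eWAT libraries overlapped only through iWAT wt replicate 3. The log2 differences were 1.53 (SE 0.310, adjusted p = 0.000552) for iBAT against iWAT, 2.99 (SE 0.328, adjusted p = 8.48e-07) for iBAT against eWAT and 1.46 (SE 0.310, adjusted p = 0.00738) for iWAT against eWAT.

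P2rx5 encodes an ATP-gated cation channel of the P2X family and lies on chromosome 11 from 73160421 to 73172685 (ENSMUSG00000005950, plus strand). Its level was 121 ± 24.1 CPM in iBAT (89.5, 121 and 150), 15.8 ± 9.23 in iWAT (5.24, 13.1 and 29.2) and 1.99 ± 1.44 in eWAT (0.594, 1.59 and 4.46). The 3 tissues did not overlap in any library. It was 7.73-fold higher in iBAT than in iWAT (log2 2.95, SE 0.425, adjusted p = 2.19e-05), 61.3-fold higher than in eWAT (log2 5.94, SE 0.499, adjusted p = 3.89e-08) and 7.92-fold higher in iWAT than in eWAT (log2 2.99, SE 0.449, adjusted p = 0.000463).

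Kcnk3 encodes TASK-1, a tandem-pore domain potassium channel that holds the resting membrane potential, and lies on chromosome 5 from 30588170 to 30625271 (ENSMUSG00000049265, plus strand). Its level was 807 ± 76.2 CPM in iBAT (688, 839 and 870.5), 82.1 ± 37.5 in iWAT (21.04, 85.4 and 120.2) and 10.5 ± 7.49 in eWAT (2.87, 7.95 and 20.7). The lowest iWAT library, wt replicate 3, lay just above the highest eWAT library, ko replicate 1, and all other libraries were further apart. The log2 differences were 3.31 (SE 0.445, adjusted p = 1.03e-05), 6.33 (SE 0.516, adjusted p = 2.72e-08) and 3.02 (SE 0.445, adjusted p = 0.000385) for iBAT against iWAT, iBAT against eWAT and iWAT against eWAT. All 3 genes were ordered in the same way in 6 of 6 mice. Of all genes tested, 1.31% were higher in iBAT than iWAT and in iWAT than eWAT with all 3 contrasts past the threshold, against these 3 of the 10.

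Eva1a encodes a membrane protein of the endoplasmic reticulum and lysosome that takes part in autophagy and apoptosis, and lies on chromosome 6 from 82041043 to 82093099 (ENSMUSG00000035104, plus strand). Its level was low, with 8.06 ± 3.28 CPM in iBAT (4.38, 7.59 and 13.4), 2.92 ± 0.495 in iWAT (2.32, 2.92 and 3.71) and 2.62 ± 1.89 in eWAT (1.31, 1.999 and 6.33). All iBAT libraries were above all iWAT libraries, but eWAT wt replicate 1 lay inside the range of iBAT. Expression was 2.75-fold higher in iBAT than in iWAT (log2 1.46, SE 0.335, adjusted p = 0.00154) and 3.25-fold higher than in eWAT (log2 1.70, SE 0.341, adjusted p = 0.00047), whereas iWAT and eWAT differed by 0.24 (SE 0.335, adjusted p = 0.699). RefSeq lists the older symbol Eva1 for another gene, Mpzl2, which encodes an adhesion protein of the immunoglobulin superfamily. Mpzl2 was more abundant, at 93.2 ± 9.91 CPM in iBAT, 13.1 ± 5.02 in iWAT and 9.09 ± 9.02 in eWAT, and higher in iBAT in 6 of 6 mice (log2 2.84, SE 0.478, adjusted p = 0.000104 against iWAT and log2 3.39, SE 0.492, adjusted p = 2e-05 against eWAT). Its highest eWAT values, 25.3 and 14.5 CPM, came from the same 2 libraries that held epididymis genes, and its eWAT median was 4.03 CPM.

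Slc29a1 encodes ENT1, an equilibrative nucleoside transporter, and was the only proposed beige marker among the 4 that was highest in iBAT. It lies on chromosome 17 from 45585200 to 45599606 (ENSMUSG00000023942, minus strand). Its level was 103 ± 36.2 CPM in iBAT (49.1, 113 and 139), 47.4 ± 10.7 in iWAT (37.0, 46.2 and 60.9) and 40.5 ± 3.40 in eWAT (34.5, 41.2 and 44.4). The lowest iBAT library, wt replicate 3, fell among the iWAT libraries but above all eWAT libraries, so 5 of 6 mice had the higher level in iBAT than in iWAT and 6 of 6 than in eWAT. The log2 differences were 1.13 (SE 0.216, adjusted p = 0.000337) against iWAT and 1.35 (SE 0.217, adjusted p = 5.67e-05) against eWAT. Between iWAT and eWAT the difference was 0.22 (SE 0.214, adjusted p = 0.556).

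Tmem26 encodes a multi-pass membrane protein and Tbx1 the T-box transcription factor named above, and both were close to absent from iBAT. Tmem26 (ENSMUSG00000060044, chromosome 10 from 68723646 to 68782650, plus strand) had 1 count in all 6 iBAT libraries together, 0.0648 CPM in wt replicate 2 and 0 in the other 5. A count of 0 allowed up to 0.235 CPM in an iBAT library, taking 3 counts as the limit. It reached 4.40 ± 3.93 CPM in iWAT (1.35, 2.46 and 10.4) and 0.325 ± 0.250 in eWAT (0.0429, 0.377 and 0.558). The iWAT libraries lay above every library of the other tissues, and the 2 highest were the 2 with lymph node genes. From the summed counts, 726 in iWAT, 52 in eWAT and 1 in iBAT, the level in iWAT was 386.5 times that in iBAT (95% interval 69.2 to 15290) and the level in eWAT 31.1 times that in iBAT (5.34 to 1251). These exact intervals cover counting error only. The tests gave adjusted p = 6.61e-06 for iBAT against iWAT, 0.00405 for iBAT against eWAT and 0.00302 for iWAT against eWAT, the last with a log2 difference of 3.72 (SE 0.699).

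Tbx1 (ENSMUSG00000009097, chromosome 16 from 18580979 to 18590671, minus strand) had 4 counts in iBAT, 2 each in ko replicates 2 and 3. It reached 5.71 ± 3.91 CPM in iWAT (1.33, 5.30 and 10.6) and 1.22 ± 1.12 in eWAT (0.346, 0.687 and 3.28). Every white library lay above every iBAT library, and iWAT overlapped eWAT. From 950 counts in iWAT, 223 in eWAT and 4 in iBAT, the ratios to iBAT were 126 (49.2 to 465) for iWAT and 33.3 (12.8 to 123) for eWAT. Of the 223 eWAT counts, 135 came from ko replicate 2 (3.28 CPM), with at most 1.76 CPM in any other eWAT library. The tests gave adjusted p = 7.41e-06 and 0.000313 for these contrasts and 0.0321 for iWAT against eWAT, with a log2 difference of 2.27 (SE 0.632) there and a higher level in iWAT in 5 of 6 mice.

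Tnfrsf9 encodes the receptor 4-1BB (CD137), best known as a costimulatory receptor of activated T cells, and its ligand is encoded by Tnfsf9. The receptor gene (ENSMUSG00000028965) lies on chromosome 4 from 150914562 to 150946102, plus strand. Its level was low throughout, with 0.548 ± 0.241 CPM in iBAT (0.194, 0.571 and 0.867), 2.304 ± 2.66 in iWAT (0.541, 1.17 and 7.49) and 0.438 ± 0.229 in eWAT (0.0879, 0.411 and 0.741). The tissues overlapped in every pairing, and the iWAT mean was carried by wt replicate 3. The log2 differences were −2.02 for iBAT against iWAT (SE 0.626, adjusted p = 0.012), 2.302 for iWAT against eWAT (SE 0.624, adjusted p = 0.0284) and 0.28 for iBAT against eWAT (SE 0.636, adjusted p = 0.725). The ligand Tnfsf9 was at 0.256 ± 0.202 CPM in iBAT, 1.11 ± 0.405 in iWAT and 0.351 ± 0.194 in eWAT, lower in iBAT than in iWAT (log2 −2.12, SE 0.570, adjusted p = 0.00475), with a difference of 1.62 between iWAT and eWAT (adjusted p = 0.0625).

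Epsti1 encodes a protein that is induced by interferon and expressed in immune and stromal cells, and it was the only 1 of the 5 proposed brown markers with its lowest level in iBAT. It lies on chromosome 14 from 77904239 to 78002657 (ENSMUSG00000022014, plus strand). Its level was 1.54 ± 0.691 CPM in iBAT (0.783, 1.48 and 2.72), 33.9 ± 45.6 in iWAT (5.78, 8.78 and 119) and 4.86 ± 1.93 in eWAT (1.98, 5.17 and 7.38). Every iWAT library lay above every iBAT library, iBAT and eWAT overlapped narrowly, and within each of the 6 mice the order was iWAT, eWAT, iBAT. The log2 difference was −4.41 for iBAT against iWAT (SE 0.753, adjusted p = 0.000119), 2.72 for iWAT against eWAT (SE 0.681, adjusted p = 0.019) and −1.68 for iBAT against eWAT (SE 0.700, adjusted p = 0.0511). With the mouse as a block, which pairs the 3 tissues of each animal, the last contrast passed the threshold (log2 −1.76, adjusted p = 0.0356) and iWAT against eWAT no longer did (log2 1.97, adjusted p = 0.0751).

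**Figure D2:**
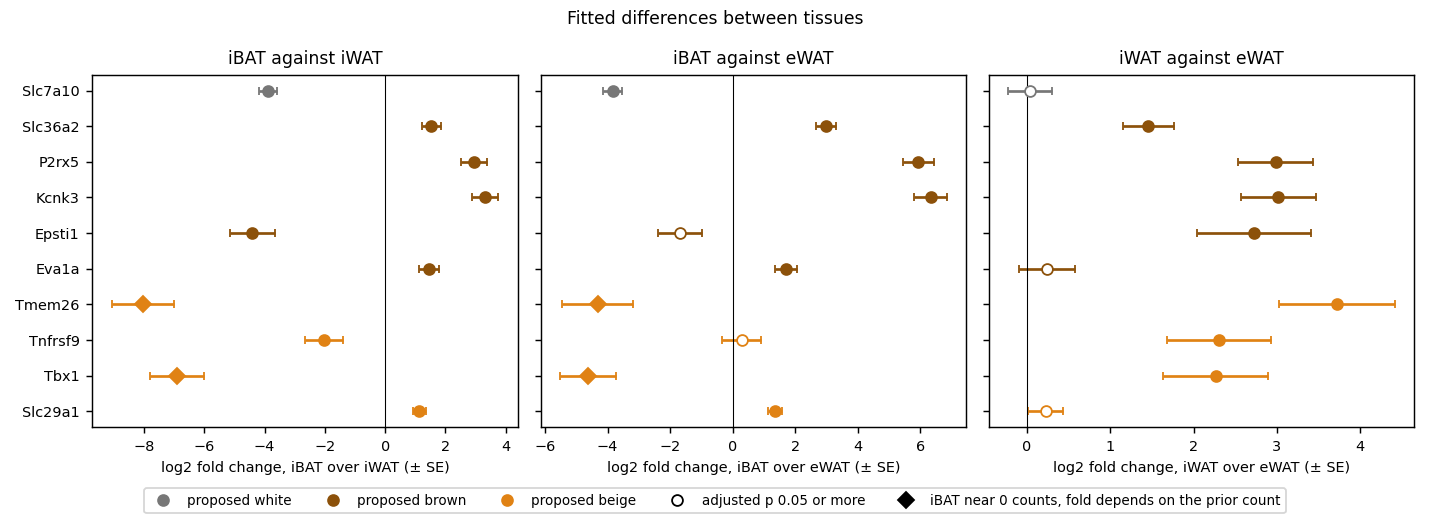
Log2 fold change (± SE, edgeR) of each proposed marker between tissues, by proposed class. Filled symbols had an adjusted p under 0.05, open ones did not, and diamonds mark Tmem26 and Tbx1 against iBAT, where 1 and 4 counts were found and the fitted size is no bound. For iBAT against iWAT, 5 genes lie to the right of 0 and 5 to the left.

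Counted over the tissue contrasts, 5 of the 10 genes were higher in iBAT than in iWAT and 5 were lower, compared with 24% and 30.3% of all genes tested. For iBAT against eWAT, 5 were higher and 3 lower, compared with 24.4% and 30.2%. For iWAT against eWAT, 7 were higher in iWAT and 0 in eWAT, compared with 5.7% and 4.5%. The median log2 differences of the 10 genes were −0.444, 0.819 and 2.28 in these contrasts, those of all genes −0.145, −0.175 and 0.0105. Libraries of the 2 tissues did not overlap for 8, 6 and 3 of the 10 genes, compared with 34.6%, 37.3% and 4.62% of all genes. Tmem26, Tnfrsf9, Tbx1 and Epsti1 were the 4 genes higher in iWAT than in both other tissues, a pattern of 3.37% of all genes. The tissue contrasts share libraries and are not independent of each other.

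The 4 genes that were highest in iWAT also had the largest SD relative to their mean over the iWAT libraries among the 10, and 3 of them followed the lymph node genes. Epsti1 was at 119 and 53.7 CPM in iWAT wt replicate 3 and ko replicate 2, against 5.78 to 9.82 CPM in the other 4, a ratio of means of 11.3. Tnfrsf9 was at 7.49 and 2.74 CPM against 0.541 to 1.39, a ratio of 5.68. Tmem26 was at 10.4 and 8.38 CPM against 1.35 to 2.49, a ratio of 4.89. In each of these 3 genes both libraries exceeded all other libraries of any tissue. Tbx1 did not separate in this way, with 9.79 and 6.20 CPM in the 2 libraries and 1.33 to 10.6 in the other 4, the highest in iWAT ko replicate 3. None of the 12 lymph node genes was at 0 in any iWAT library. The 6 macrophage genes summed to 648.4 and 774.8 CPM in the 2 libraries against 184.3 to 405.6, and the 14 interferon genes to 469.8 and 876.1 against 322.9 to 546.9. The 6 common adipocyte genes moved the other way, 15450 and 18590 CPM against 26050 to 36240.

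Slc7a10, Slc36a2 and Kcnk3 were lower in these 2 libraries than in the other 4 of iWAT. Slc7a10 was at 125 and 147 CPM against 210.3 to 279 in the other 4, Slc36a2 at 124 and 214 against 258 to 409, and Kcnk3 at 21.04 and 61.2 against 85.2 to 120.2. P2rx5, at 5.24 and 13.6 CPM, overlapped the other 4 (9.47 to 29.2), as did Eva1a (2.93 and 2.48 against 2.32 to 3.71). Slc29a1 was higher, at 56.8 and 60.9 against 37.0 to 52.7 CPM.

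Without these 2 libraries, a comparison chosen after seeing the data, 4 genes in place of 7 were higher in iWAT than in eWAT, namely Slc36a2 (log2 1.72, adjusted p = 0.00202), P2rx5 (3.26, adjusted p = 0.000314), Kcnk3 (3.35, adjusted p = 0.000129) and Tmem26 (2.54, adjusted p = 0.0173). Of all genes, 5.02% of 19250 tested were higher in iWAT in this comparison, against 5.7% with all libraries. Epsti1 came to 0.66 (adjusted p = 0.266), Tnfrsf9 to 1.03 (adjusted p = 0.216) and Tbx1 to 1.83 (adjusted p = 0.102). Against iBAT, Epsti1 remained lower in iBAT at −2.33 (adjusted p = 7.21e-05), as did Tmem26 (adjusted p = 1.83e-05) and Tbx1 (adjusted p = 3.13e-05), whereas Tnfrsf9 came to −0.71 (adjusted p = 0.253). The part of macrophages and interferon genes in these values was not tested.

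**Figure D3:**
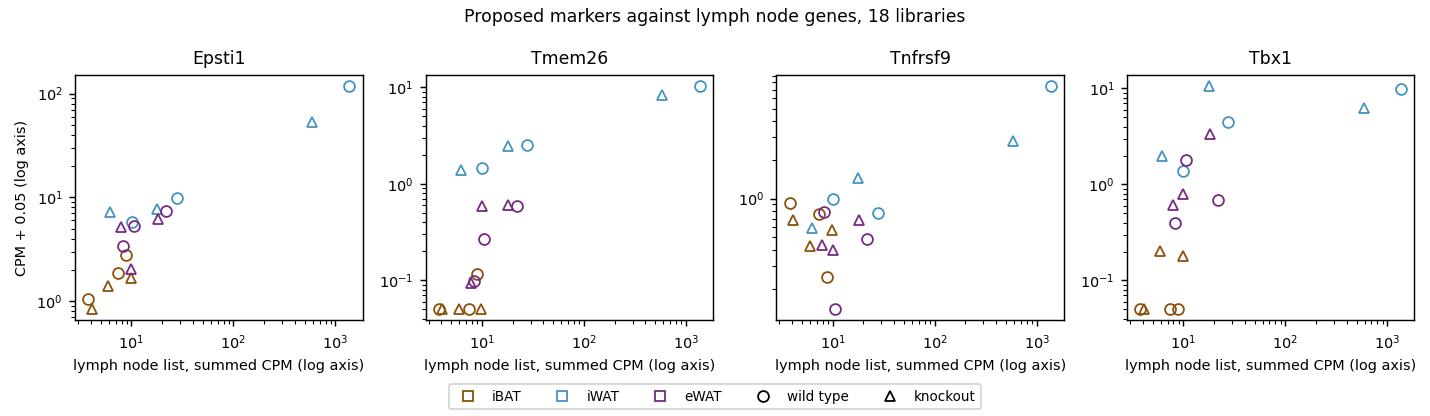
Level of Epsti1, Tmem26, Tnfrsf9 and Tbx1 (CPM + 0.05, log axis) against the summed level of 12 lymph node genes (CPM, log axis) in the 18 libraries, coloured by tissue, circles for wild type and triangles for knockout. The 2 iWAT libraries at 585.6 and 1374 CPM carried the highest values of Epsti1, Tmem26 and Tnfrsf9, whereas the highest Tbx1 value came from an iWAT library with 17.76 CPM of lymph node genes.

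The starts of the 3 genes that stood apart in these libraries are set side by side, each as 300 bases of RefSeq on GRCm38.p6 from 250 before to 50 after the start. They are Epsti1 at chr14:77903989-77904288, Tmem26 at chr10:68723496-68723795 and the second listed start of Tnfrsf9 at chr4:150927749-150928048, all on the plus strand. Capitals mark AGGTCA or its reverse complement TGACCT, a core element of nuclear receptor sites held by 16.26% of promoters, in Epsti1 and near the end of Tnfrsf9, the EBF letters CCCNNGGG in Tmem26, and the NF-kB letters GGGNNTTCC in Tnfrsf9.
Epsti1: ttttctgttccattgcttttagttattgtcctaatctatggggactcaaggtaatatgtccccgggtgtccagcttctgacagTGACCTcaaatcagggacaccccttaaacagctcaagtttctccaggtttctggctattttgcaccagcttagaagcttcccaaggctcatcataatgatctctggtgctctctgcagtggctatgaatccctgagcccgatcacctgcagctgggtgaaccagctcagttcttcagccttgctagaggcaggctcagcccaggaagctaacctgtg
Tmem26: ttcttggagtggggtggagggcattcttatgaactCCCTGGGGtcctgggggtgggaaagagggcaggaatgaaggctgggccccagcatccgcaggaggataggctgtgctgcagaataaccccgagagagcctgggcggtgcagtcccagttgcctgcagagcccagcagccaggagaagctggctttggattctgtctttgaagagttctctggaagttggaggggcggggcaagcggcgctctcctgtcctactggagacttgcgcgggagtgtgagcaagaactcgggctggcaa
Tnfrsf9: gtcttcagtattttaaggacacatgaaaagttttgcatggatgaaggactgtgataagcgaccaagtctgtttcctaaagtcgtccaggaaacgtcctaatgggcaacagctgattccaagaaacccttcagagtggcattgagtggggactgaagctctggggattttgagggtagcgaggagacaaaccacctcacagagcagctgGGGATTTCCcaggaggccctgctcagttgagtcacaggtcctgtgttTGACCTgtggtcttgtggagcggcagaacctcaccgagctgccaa
The interferon response core GAAANNGAA, held by 8.56% of promoters, and the cyclic AMP response element TGACGTCA, held by 1.79%, matched in none of the 16 windows of the 7 genes that had a sequence, which were Slc7a10, Epsti1, Eva1a, Tmem26, Tnfrsf9, Tbx1 and Slc29a1. The first listed start of Tnfrsf9 and both starts of Tbx1 held none of the 5 motifs searched, and Eva1a held 1 EBF match. Slc29a1 had 5 matches in 4 of its 8 windows, 2 of EBF, 2 of the nuclear receptor motif AGGTCA and 1 of NF-kB.

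Per length of transcript, levels can be set between genes. In RPKM, the CPM per kilobase of annotated exons, Slc36a2 (249 ± 9.35) led in iBAT, followed by Kcnk3 (203 ± 19.2) and P2rx5 (50.6 ± 10.1), and the ranges of these 3 did not overlap. In iWAT, Slc7a10 (96.6 ± 27.4) and Slc36a2 (86.2 ± 33.5) led and overlapped, ahead of Kcnk3 (20.7 ± 9.43). In eWAT, Slc7a10 (94.2 ± 27.2) led, then Slc36a2 (31.4 ± 12.5) and Slc29a1 (10.1 ± 0.849), and the range of Slc36a2 overlapped those of both others. The 3 proposed beige markers with their highest level in iWAT were at 0.833 (Tmem26), 0.847 (Tnfrsf9) and 1.63 RPKM (Tbx1) there. These means were below those of the proposed brown and white markers other than Eva1a (1.04 RPKM), whose range all 3 overlapped. The ranges of Tnfrsf9 and Tbx1 also overlapped those of P2rx5 and Epsti1.

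Level of the thermogenic gene Ucp1 differed between the iWAT libraries, from 0.0989 CPM in wt replicate 3 to 55.3 in wt replicate 2, with 2.70 in wt replicate 1 and 3.21, 16.5 and 18.5 in ko replicates 1, 2 and 3. The 10 genes were set against it over these 6 libraries on the log2(CPM + 0.5) scale. P2rx5 had the highest correlation, r = 0.906 (exact permutation p = 0.0194, two-sided, 0.194 after adjustment over the 10 genes) and rho = 0.886 (exact permutation p = 0.0333, adjusted 0.333). Without the 2 libraries farthest from the median of Ucp1, wt replicates 2 and 3, r was 0.738 over 4 libraries. Slc36a2 and Kcnk3 had r = 0.817 and 0.796 (exact permutation p = 0.0556 and 0.0639, both 0.213 after adjustment), which came to 0.241 and 0.0556 without those 2 libraries and thus rested on them. Of the proposed beige markers, Tmem26 had r = −0.255, Tnfrsf9 −0.547, Tbx1 0.08 and Slc29a1 −0.422. Without the same 2 libraries these came to 0.753, 0.804, 0.977 and 0.267 over 4 libraries, so that 3 of them turned in direction and all of them rested on those libraries. No relation passed the threshold after adjustment. The smallest exact permutation p that 6 pairs can give is 0.0014 for r. It is larger for rho, where the fully reversed order ties with the perfect one. Leaving out both lymph node libraries leaves 4 libraries and splitting by genotype 3, fewer than the 6 used here for a correlation with a test. The library with the lowest Ucp1, wt replicate 3, was 1 of the 2 lymph node libraries.

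Further genes proposed as markers of the 3 fat types gave the setting. Of 8 other proposed brown markers, 6 were higher in iBAT than in iWAT and 0 were lower, compared with 24% and 30.3% of all genes, with 7 higher and 1 lower (Hspb7) against eWAT, compared with 24.4% and 30.2%. Without the 2 lymph node libraries, an alternative chosen after seeing the data, 5 were higher in iBAT than in iWAT, compared with 21% of all genes. The call of Ebf3, named for this reason, was lost (adjusted p = 0.0166 with all libraries, and log2 0.47, adjusted p = 0.0798 without these 2). The transcription factor Zic1 was at 8.10 ± 3.18 CPM in iBAT against 0.245 ± 0.121 in iWAT and 0.186 ± 0.0985 in eWAT (log2 5.03 and 5.39, adjusted p = 1.08e-07 and 4.54e-08), and Cpn2, which encodes a subunit of carboxypeptidase N, was at 49.9 ± 18.8 CPM in iBAT against 0.760 ± 0.446 and 0.115 ± 0.0579. The LIM homeobox gene Lhx8 was at 3.46 ± 1.64 CPM in iBAT and 4.83 ± 1.29 in iWAT, a log2 difference of −0.55 (adjusted p = 0.22), and had 1 count in all eWAT libraries together, lower than in iBAT and iWAT (adjusted p = 1.12e-08 and 4.42e-07). The median log2 differences of these 8 genes were 2.11 and 4.39.

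Of 9 other proposed beige markers, 7 were higher in iWAT than in iBAT and 0 were lower, 3 were higher in eWAT than in iBAT, and 3 were higher in iWAT than in eWAT, compared with 30.3%, 24%, 30.2% and 5.7% of all genes. Without the 2 lymph node libraries 7 were higher in iWAT than in iBAT and 2 than in eWAT, compared with 24.5% and 5.02% of all genes. Cd40, a costimulatory receptor of B cells and antigen-presenting cells that is named after its values were seen, was at 28.4 and 17.3 CPM in these 2 libraries and at 1.85 to 2.45 in the other 4 of iWAT, and its differences from iBAT and eWAT (adjusted p = 0.00235 and 0.0445) did not pass the threshold without them (adjusted p = 0.0822 and 0.86). Hoxc9, a positional homeobox gene, was at 0.0956 ± 0.105 CPM in iBAT, 19.5 ± 6.99 in iWAT and 6.57 ± 3.41 in eWAT. For iWAT against eWAT it came to log2 1.55 (adjusted p = 0.0217), and to 1.45 (adjusted p = 0.0503) without the 2 epididymis libraries. Cited1, a transcriptional coregulator, was at 4.86 ± 4.76 CPM in iWAT, with 0.227 the lowest and 12.3 the highest library, against 0.281 ± 0.185 in iBAT and 0.264 ± 0.386 in eWAT (adjusted p = 0.00348 and 0.0133). Its highest value came from iWAT ko replicate 3, as for Tbx1. Of 6 other proposed white markers, 5 were lower in iBAT than in iWAT and 6 than in eWAT, compared with 30.3% and 30.2% of all genes, among them the leptin gene Lep at 43.3 ± 24.2, 310 ± 174 and 623 ± 258 CPM in iBAT, iWAT and eWAT (log2 −2.84 and −3.86, adjusted p = 9.7e-05 and 5.41e-06). The positional homeobox gene Hoxc10 was at 27.3 ± 8.29 CPM in iWAT, 0.635 ± 1.06 in eWAT and at most 0.0751 in iBAT, and the transcription factor Tcf21 at 4.31 ± 1.39 CPM in eWAT, at most 0.0773 in iWAT and 0 in iBAT.

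**Figure D4:**
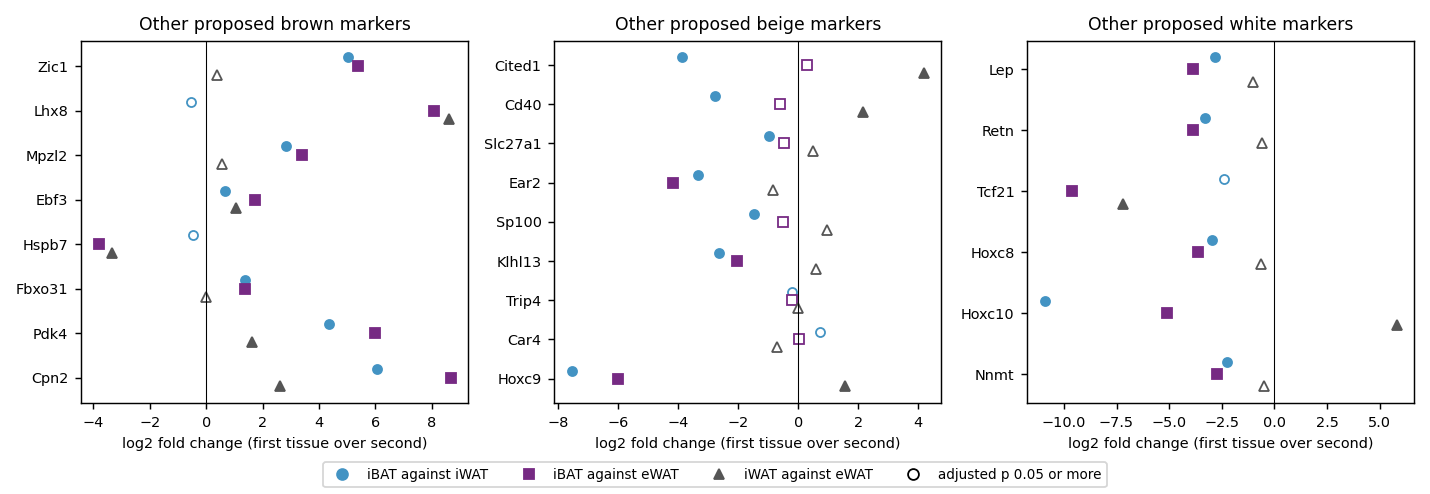
Log2 fold changes of 8 other proposed brown, 9 other beige and 6 other white markers for iBAT against iWAT (blue circles), iBAT against eWAT (purple squares) and iWAT against eWAT (grey triangles), open where the adjusted p was 0.05 or more. Of the brown markers 6 lie to the right of 0 and are filled for iBAT against iWAT, and of the white markers 6 lie to the left and are filled for iBAT against eWAT. Positions of Lhx8 against eWAT and of Hoxc10, Hoxc9 and Tcf21 against iBAT rest on near-empty libraries and are no bound.

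Loss of Gm15551 was compared with wild type to ask whether the markers move with it. By edgeR, 0 of the 10 genes passed the threshold across tissues, in iBAT, in iWAT, in eWAT or for the interaction of genotype and tissue, compared with 0.00534%, 0%, 0%, 0.00534% and 0% of all genes, and Gm15551 itself was the only gene behind these shares. In iBAT and iWAT alone Gm15551 did not pass the threshold by edgeR either, although its counts there were 0 or 1 in every knockout library and at least 40 in every wild type library. DESeq2 and limma voom called 0 of the 10 as well. At an unadjusted p under 0.05 there was 1 of the 10, Eva1a in eWAT, among 411, 238, 415, 814 and 264 genes in these 5 tests. In eWAT, Eva1a was at 6.33, 2.72 and 2.03 CPM in wt replicates 1, 2 and 3 and at 1.97, 1.31 and 1.39 in ko replicates 1, 2 and 3, so that all knockout libraries lay below all wild type libraries (log2 −1.25, SE 0.450, adjusted p = 1 by edgeR). The highest of them, wt replicate 1, was 1 of the 2 libraries with epididymis genes. In iBAT and iWAT the wild type and knockout libraries overlapped for all 10 genes, and in eWAT for the other 9, while the genotypes did not overlap for 4.94%, 4.92% and 5.25% of all genes in iBAT, iWAT and eWAT.

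The fitted differences across tissues ran from −0.602 (Epsti1, SE 0.548) to 0.72 (Tbx1, SE 0.573), with a median of 0.00368 over the 10 genes and 0.0049 over all genes. The 3 graded genes differed between genotypes by 0.00283 (Slc36a2, SE 0.249), 0.24 (P2rx5, SE 0.338) and 0.42 (Kcnk3, SE 0.339), and Slc7a10 by −0.18 (SE 0.215). For Kcnk3 in eWAT, ko libraries were at 20.7, 18.8 and 2.87 CPM and wt libraries at 7.65, 8.25 and 4.54 CPM (log2 1.06, SE 0.607, adjusted p = 1), with the lowest value in the knockout library that held epididymis RNA. For Epsti1 and Tnfrsf9 in iWAT the differences of −0.97 and −0.97 had SE of 0.952 and 0.852, and 1 of the 2 lymph node libraries fell in each genotype. With SE of this size, differences of 2-fold were not detectable for these genes.

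**Figure D5:**
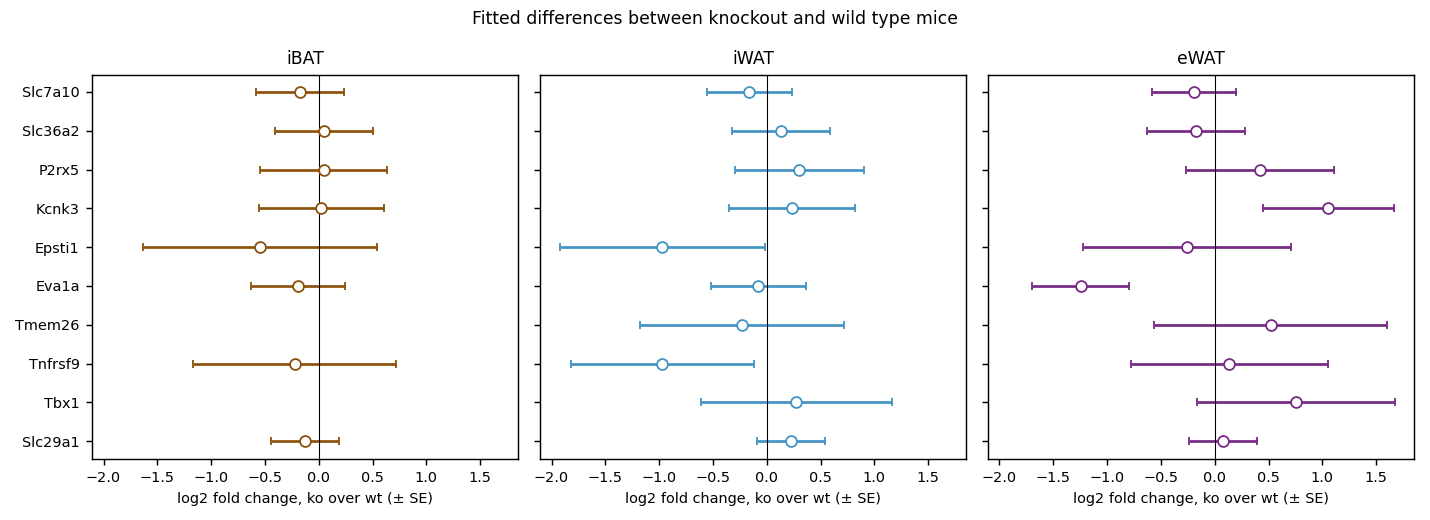
Log2 fold change of knockout over wild type (± SE, edgeR) for the 10 proposed markers in iBAT, iWAT and eWAT, 3 mice per genotype. All symbols are open because no adjusted p was under 0.05, Tmem26 and Tbx1 are left out in iBAT, where the 6 libraries held 1 and 4 counts, and Eva1a in eWAT lies farthest to the left at −1.25.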

How the data were processed

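RNA was isolated from frozen tissue and polyadenylated RNA was sequenced as paired-end libraries (NEBNext Ultra II). The authors trimmed reads with cutadapt, used salmon with the GENCODE M22 transcriptome (GRCm38), alone or combined with RNAcentral, and deposited the estimated counts per gene, in whole numbers and without normalisation. Which reference was used and the strand setting were not given in the sources used here. Salmon divides reads shared between genes by a model, so values of near-identical copies and of antisense genes, among them Gm15551, are uncertain.

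Groups and replicate numbers were taken from the library titles, and genes from the symbols in the table. The main test was edgeR 4.0.16 (R 4.3.3), quasi-likelihood, on the estimated counts after filterByExpr by group and TMM scaling. Contrasts between tissues and the genotype effect across tissues came from a model with tissue and genotype, those within tissues and the interaction from a model with 1 mean per group. Benjamini-Hochberg adjustment covered all 18728 genes, and the threshold was 0.05. SE was computed from the log2 fold change and its F statistic. CPM includes the TMM factor, and RPKM divides it by the length of the merged exons in GENCODE M21, which also gave positions. A ratio against a tissue with 1 to 4 counts came from summed counts with an exact 95% interval. Total counts ranged from 14997901 to 34389586, and a count of 0 allowed up to 3 counts (0.0728 to 0.235 CPM). Intervals and limits cover counting error only. The p-values and SE of the main fit measure the spread between libraries. Libraries were treated there as independent, although each mouse gave 1 per tissue. The genotype effect across tissues thus rests on 3 mice per genotype.

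The members, the lists of other genes, the tests and the alternatives were chosen with earlier results of these data known. Named were all 10 genes, Gm15551, Ucp1, Mpzl2, Slc3a2, Tnfsf9, Zic1, Hoxc9, Cited1, Lep, up to 2 genes with the smallest p-value per list of other markers or relatives and contrast, and the 3 genes most correlated with each of the 10. Hspb7, P2rx2, P2rx3, Kcnk1, Slc7a11, Slc29a2 and Slc29a4 were named after their values were seen. Lists of adipocyte, lymph node, macrophage, interferon, endothelial, mesothelial, skeletal muscle and epididymis genes were summed. The 6 endothelial genes gave 814.8 to 992.9, 586.8 to 920.0 and 530.8 to 1091 CPM in iBAT, iWAT and eWAT, and the 6 mesothelial genes 4.023 to 6.889, 3.117 to 54.85 and 74.26 to 136.2 CPM.

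By the mouse identifiers in the labels, each animal gave 1 library per tissue, and deviations of libraries of the same mouse correlated between −0.151 and 0.345, with 7 of 18 pairs over 0.1. Wild type and knockout mice of the same number, whose identifiers are close with no meaning given, correlated between −0.558 and 0.608, with 4 of 9 over 0.1, and were not treated as pairs. Alternatives were other size factors, no filter, at least 10 counts in every library, robust dispersions, DESeq2 1.42.0, limma 3.58.1 voom with quality weights, the mouse or the replicate number as a block, subsets of tissues or genotypes, and leaving out each mouse or the 4 libraries with RNA of other organs. Leaving out only the 2 lymph node or only the 2 epididymis libraries (also for the other markers and the relatives), and sums per mouse, were added after seeing the data. The fit was tested on simulated data. Promoter sequences were taken from RefSeq (GRCm38.p6).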

Additional observations from a re-analysis of the deposited data

Results flagged for a closer look

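Each of the 10 genes was examined in each tissue for a library far from the other 5, which gave 30 comparisons. In 4 of them the gap between the extreme library and its neighbour took up more of the range of the 6 than Dixon's 95% critical value allows, where chance gives about 1 in 20, or 1.5.

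Slc7a10 in eWAT was lowest in ko replicate 3, at 86.4 CPM against 203.4 in the next library, a gap of 0.7122 of the range. The library held 5093 CPM of epididymis genes, and its common adipocyte genes summed to the lowest value of eWAT, 13980 CPM against a median of 28100. Eva1a in eWAT was highest in wt replicate 1, at 6.331 CPM against 2.717, a gap of 0.7198. This library held 34.82 CPM of epididymis genes. Tnfrsf9 in iWAT was highest in wt replicate 3, at 7.486 CPM against 2.737, a gap of 0.6838, and this was the library with the most lymph node RNA, 1374 CPM. Tmem26 in iBAT stood out in wt replicate 2 with a gap of 1.0, the whole range, but this was a single count (0.0648 CPM) against 0 in the other 5. Whether the RNA of other organs set any of these values was not tested.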

How the results depend on the processing

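The calls of Slc7a10, Slc36a2, P2rx5, Kcnk3 and Slc29a1 between iBAT and either white tissue, and those of Epsti1, Eva1a, Tmem26 and Tbx1 between iBAT and iWAT, held under every alternative in which the gene was tested. Tmem26, Tnfrsf9 and Tbx1 have fewer than 10 counts in some library, so requiring at least 10 counts everywhere removed them before any test. Calls between iWAT and eWAT were less stable: of 18 alternatives for Kcnk3 all passed, for P2rx5 and Slc36a2 17, for Epsti1 9, and for Tmem26, Tbx1 and Tnfrsf9 16, 8 and 6 of 17. In that contrast 7 of the 10 genes were called, but 4 with voom (2980 genes called in all), 1 in wild type libraries only (247), 4 with only the 2 tissues in the fit (854), 4 without the 4 libraries with genes of other organs (2066), 4 without the 2 lymph node libraries (1527) and 4 without the 2 epididymis libraries (1381), against 1911 genes in all. At least 10 counts everywhere gave 4 calls (1149 in all) from the 7 genes left to test, the same 4 of those 7 as without that filter. Leaving out 1 mouse gave 4 to 7 of the 10 genes and 750 to 1595 genes. For Tnfrsf9, the log2 difference between iBAT and iWAT without wt replicate 3 was −1.21 (adjusted p = 0.0746), without ko replicate 2 −1.78 (adjusted p = 0.062) and without both lymph node libraries −0.71. Epsti1 between iBAT and eWAT (adjusted p = 0.0511) passed the threshold under 7 of 17 alternatives. Eva1a and Tmem26 between iBAT and eWAT missed it in wild type libraries only (adjusted p = 0.0761 and 0.122). The cause was not tested.

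Directions turned only for differences that were not called. Tnfrsf9 between iBAT and eWAT came to −0.10 with voom, −0.026 without the epididymis libraries and −0.0535 to 0.551 when leaving out 1 mouse, below 0 without wt replicate 1. Slc7a10 between iWAT and eWAT came to −0.15 without the epididymis libraries and −0.15 to 0.1773 when leaving out 1 mouse, below 0 without wt replicate 1, wt replicate 2 or ko replicate 3. Eva1a in the same contrast came to −0.30 in wild type libraries only and Slc29a1 to −0.10 without the 4 libraries. Genes called for iBAT against iWAT and against eWAT fell from 10164 and 10220 to 6595 and 6574 in wild type libraries only.

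Genotype contrasts called 0 of the 10 genes under every alternative in which they were tested, the replicate number as a block included. The 1 gene called across tissues and in eWAT was Gm15551. The requirement of 10 counts everywhere removes it, so the 0 calls under that requirement could not have included it. The count of all genes across tissues was 1, with 4 by DESeq2, 2 with voom, 3 with the replicate number as a block and 0 from sums per mouse. In iBAT it was 0, with 13 by DESeq2, 1 without the 4 libraries and 0 to 1 when leaving out 1 mouse. In iWAT it was 0, with 1 without a filter, 4 by DESeq2 and 11 without the 4 libraries. In eWAT it was 1, with 13 by DESeq2, 3 with voom, and 0 with the replicate block, with only that tissue, without the epididymis libraries and on leaving out any 1 mouse. The interaction gave 0, and 2 without the 4 libraries. With the mouse as a block for the tissue contrasts, only the calls of Epsti1 given above changed.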

Other observations

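The families of the marker genes were counted next. Of 25 relatives, 23 were tested: 3 were higher and 13 lower in iBAT than in iWAT, 3 higher and 12 lower in iBAT than in eWAT, and 2 higher and 0 lower in iWAT than in eWAT, compared with 24% and 30.3%, 24.4% and 30.2%, and 5.7% and 4.5% of all genes, the median log2 difference being −0.997 in the first contrast and −0.0749 in the last. Among the ATP-gated channels, P2rx7, known from macrophages, was lower in iBAT than in both white tissues (log2 −1.95, SE 0.204, adjusted p = 6.85e-07 and log2 −1.41, SE 0.202, adjusted p = 1.76e-05), opposite to P2rx5, and P2rx4 was higher in iWAT than in eWAT (log2 0.51, adjusted p = 0.0222), a call lost without the 2 lymph node libraries (log2 0.33, adjusted p = 0.111), the 2 epididymis libraries (0.39, adjusted p = 0.0553) or the 4 libraries with genes of other organs (0.23, adjusted p = 0.0573). The nucleoside transporter Slc29a3 was lower in iBAT than in iWAT (log2 −2.17, adjusted p = 2.73e-06) and eWAT (log2 −2.34, adjusted p = 1.01e-06), opposite to Slc29a1. Without the 2 lymph node libraries 3 relatives were higher in iBAT than in iWAT and 12 lower, compared with 21% and 24.5% of all genes. The 3, which ran like Slc29a1 and P2rx5, were Slc29a2 (log2 1.13, adjusted p = 0.000492), Slc29a4 (2.52, adjusted p = 0.0388) and P2rx3 (1.58, adjusted p = 0.0189). The T-box gene Tbx15 was lower in iBAT than in iWAT (log2 −2.48, adjusted p = 1.58e-06) and higher in both than in eWAT (log2 4.72 and 7.21, adjusted p = 8.16e-09 and 1.02e-08), unlike Tbx1, which was near 0 in iBAT. P2rx2, Kcnk1 and Slc7a11 were called lower in iBAT than in eWAT (adjusted p = 0.00354, 0.0119 and 0.0346), with 110.2, 141 and 50.6 CPM in ko replicate 3, the eWAT library with 5093 CPM of epididymis genes, and at most 3.56, 31.5 and 1.48 CPM in the other 5. The 31.5 CPM of Kcnk1 came from wt replicate 1, the other epididymis library, while the remaining 4 eWAT libraries were at 0.0858 to 0.243 CPM against an iBAT median of 0.821. Without these 2 libraries Kcnk1 was higher in iBAT than in eWAT (log2 2.28, adjusted p = 0.0113), Slc7a11 missed the threshold (adjusted p = 0.559) and P2rx2 did not pass the filter on low counts. In that comparison 6 of 22 relatives tested were higher and 8 lower in iBAT than in eWAT, against 24.2% and 25.6% of all genes.

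Over the 18 libraries, log2(CPM + 0.5) of the graded genes ran together, with r = 0.987 for P2rx5 and Kcnk3, 0.973 for Slc36a2 and Kcnk3 and 0.971 for Slc36a2 and P2rx5. The libraries share mice, tissues and RNA of other organs, so these values describe the set and carry no test. The genes most like P2rx5 outside the 10 were the thermogenic genes Cidea (0.988) and Cox8b (0.985), like Kcnk3 Zdhhc2 (0.988) and 1700037H04Rik (0.987), like Slc36a2 the lipogenic Acaca (0.991), Rgs7 (0.987) and Tkt (0.983), and like Slc7a10 Chrd (0.991), Chst1 and Ffar2 (both 0.989). For Slc29a1 they were Gm4961 (0.954), Got1 (0.939) and Esrrb (0.93), and for Eva1a Cfap54 (0.906), Odad3 (0.9) and Rap1gap (0.893).

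The genes most like the remaining 4 included genes of leukocytes. Epsti1 was closest to Shisa5 (0.991), Pik3cd (0.989) and Ptprc (0.988), which encodes CD45. Tmem26 was closest to Ifi213 (0.952), Xcl1 (0.948) and Cd7 (0.947), Tnfrsf9 to Zdhhc18 (0.944), Cst7 (0.932) and Crtam (0.929), and Tbx1 to Klrb1c and Klri2 (both 0.937) and Cdca7l (0.928). Among the 10 themselves, Epsti1 and Tmem26 had r = 0.917 and Tmem26 and Tbx1 0.892.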
